A study of Rattus norvegicus and Bos taurus with 6 samples.

Results

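Capillary endothelial nuclei of cow subcutaneous fat were taken from 1 single-nucleus RNA library, as the nuclei that held transcripts of 8 endothelial genes and no transcript of 4 venous genes. They numbered 337 of the 2064 cow nuclei with at most 15000 UMIs (16.3%, exact binomial 95% interval 14.8 to 18.0), of 2297 cow nuclei in all and of 19424 nuclei in the 6 libraries of the series. A UMI is a molecular tag that marks 1 captured transcript. A nucleus was taken when its UMIs of PTPRB, PECAM1, CYYR1, SHANK3, MECOM, FLT1, ADGRL4 and EMCN summed to at least 5 and to more than 2 times its UMIs of PDGFRA, DCN, FBN1, PTPRC, MRC1, DOCK2, NOTCH3 and MYH11, genes of stromal, immune and mural cells. It also had to hold no UMI of ACKR1, SELP, TLL1 or SERTM1, the 4 venous genes. The same nuclei supplied both the choice and the levels below, so differences from other nuclei are descriptions without a test.

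The study prepared nuclei from adipose depots of rats and cattle by droplet capture (10x) and by combinatorial barcoding (Parse Evercode WT), which needs no droplets because fixed nuclei are barcoded in rounds of pooling and splitting. The cow library came from subcutaneous white fat of the flank of female lactating Holstein cattle kept in tie stalls, early in the second lactation and clinically healthy by the study's methods, labelled normal, with no treatment. How many animals entered it, and their age in years, are not given in the sources used here. Snap-frozen tissue was pulverised, homogenised and filtered before fixation, so nuclei and not whole cells were read, with a median mitochondrial share of UMIs of 0.0188% in capillary nuclei, and any loss of nuclei by type at these steps cannot be told from the makeup of the tissue. Beside it, 2 Parse libraries of male Dahl SS (SS/HsdMcwiCrl) rats, labelled normal, are given once below, from perivascular fat of the thoracic aorta and from subscapular brown fat. Each condition was 1 library (n = 1), so no p-value was computed, and the 95% intervals cover counting error only.

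Capillaries are the thinnest vessels, in which a single layer of endothelial cells on a basement membrane meets the tissue. In fat, lipoprotein lipase made by adipocytes is carried to their surface by GPIHBP1, and the fatty acids it frees pass through these cells with the help of CD36 and fatty acid binding proteins. Endothelium is kept by VEGF, angiopoietin, Notch and BMP signals and by ETS and SOX transcription factors, and arterial, capillary and venous segments differ in the genes they use.

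The 337 nuclei held 5 to 177 UMIs of the 8 endothelial genes, with a median of 27 and quartiles of 14 and 51. Of the stromal, immune and mural genes they held 0 to 43 UMIs, with a median of 2, and 66 nuclei held none. Of the 8 endothelial genes a median of 6 were seen per nucleus, and all 8 were seen in 95 nuclei. Just inside the lower bound, 48 cow nuclei had a sum of exactly 5, of which 14 met the whole rule. Just outside it, 83 nuclei had a sum of 4, of which 15 met the remaining conditions. A further 41 nuclei passed the sum and held no venous-gene UMI, but had more and at most 2 times as many endothelial as stromal, immune and mural UMIs. Above 15000 UMIs, 12 of 233 nuclei met every other condition, and the lowest of them had 15086 UMIs, against 14936 for the highest nucleus taken.

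The split from venous endothelium rested on the absence of single UMIs. Of 550 nuclei that met the endothelial conditions (26.6% of the 2064, 24.8 to 28.6), 337 held no venous-gene UMI, which is 61.3% (57.1 to 65.4), and 72 held exactly 1. The other 213 are called venous-gene nuclei here. TLL1 gave 950 of their venous-gene UMIs, in 196 nuclei. SERTM1 gave 144, SELP 52 and ACKR1 20. The share of endothelial nuclei with such a UMI was 24.6% among the shallowest 138 (1231 to 2360 UMIs) and 51.4% among the deepest 138 (6870 to 14936 UMIs). Nuclei of other classes also held such UMIs, in 15.5% of 265 stromal-like, 20.8% of 125 immune-like, 13.8% of 65 mural-like and 13.3% of 83 adipocyte-like nuclei. These 4 classes were set by the markers PDGFRA, DCN and FBN1 (stromal), PTPRC, MRC1 and DOCK2 (immune), NOTCH3 and MYH11 (mural) and lipid-droplet genes such as PLIN1 (adipocyte). Their median depths were 4162, 4522, 4021 and 4621 UMIs.

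The label was checked against its 5 markers, PTPRB, PECAM1, CYYR1, FLT1 and BTNL9. Only BTNL9, a butyrophilin-like gene known from fat and heart capillaries, had no part in the choice. It was seen in 279 of the 337 nuclei. All 5 markers were seen in 140 nuclei and none of them in 3. When every nucleus was thinned to 1000 UMIs, 65.6% of capillary nuclei held a BTNL9 UMI, against 3.4% of stromal-like nuclei. The endothelial part of the label thus had its marker. CA4 and PRX, which mark capillaries in other organs, were at 5 and 3 UMIs in all 337 nuclei. The nuclei also held an arterial-like subset and 30 nuclei with raised mural genes. Clusters of 48 and 66 nuclei had a raised adipocyte list. All are described below, so the capillary part of the label is broader than its name.

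The library was read in 2 sublibraries and 2 first-round wells, which are technical splits of the same nuclei preparation and not replicates. Capillary nuclei were 155 of 1033 nuclei in sublibrary 1 (95% interval 12.9 to 17.3%) and 182 of 1031 in sublibrary 2 (15.4 to 20.1%). In wells A11 and A12 they were 16.9% of 929 and 15.9% of 1135. The intervals overlapped in both splits. Capillary nuclei held 1515101 UMIs in total and a median of 3361 per nucleus (95% interval 3006 to 4021, range 1231 to 14936), with a median of 1631 genes. The median was 3581 UMIs in sublibrary 1 and 3110 in sublibrary 2. Venous-gene nuclei were deeper, with a median of 5083 UMIs (4329 to 5874), and the 1514 other nuclei were shallower, with 2837.5 (2690 to 3004). No cell barcode was shared among the Parse libraries.

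Levels are given as counts per 1000000 UMIs of the summed nuclei (CPM). They are not per length, so they are compared between groups of nuclei and not between genes. Among the 10 genes with most UMIs in capillary nuclei were TSHZ2, a zinc finger factor, at 3412 CPM, KALRN, a signalling and scaffold protein, at 3381 CPM, and PTPRM, a receptor phosphatase of cell contacts, at 3273 CPM. PLCB1, a phospholipase, was at 2826 CPM and MAGI1, a scaffold of cell junctions, at 2694 CPM. The other 5 were genes without a name. ENSBTAG00000066082 alone gave 128755 CPM, and its median share per capillary nucleus was 7.7% in well A11 and 13.5% in well A12, so it moved with the well.

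Of the genes that chose the nuclei, MECOM, a transcription factor, was at 2954 and 2354 CPM in sublibraries 1 and 2, and at 143 CPM in other nuclei. CYYR1 was at 1623 and 1416 CPM, against 74.6. FLT1, a VEGF receptor, was at 769 and 875 CPM, against 58.3. PECAM1, an adhesion molecule of endothelial borders, was at 687 and 715 CPM, against 56.0. PTPRB, a phosphatase that acts on TEK and VE-cadherin, was at 687 and 621 CPM, against 45.4. ADGRL4 was at 865 CPM, SHANK3 at 677 CPM and EMCN, an endothelial sialomucin, at 357 CPM, against 55.4, 56.2 and 71.9. These values show the size of the choice and support nothing.

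Genes outside the rule that are used by endothelium in general were high in capillary nuclei. Of 22 pan-endothelial genes with enough UMIs, 21 were at least 2-fold higher than in other nuclei and 0 lower, where 7.18% of 12528 genes were higher and 18.2% lower. Their summed level was 9860 CPM, against 2001 CPM in other nuclei, a log2 ratio of 2.30 (2.27 to 2.34), while the median over all genes was -0.25. KDR, the main VEGF receptor, was at 699 and 538 CPM in the 2 sublibraries and at 31.6 CPM in other nuclei (19.4-fold). EGFL7, a secreted vascular factor, was at 664 CPM, against 46.5 (14.3-fold), and CDH5, VE-cadherin, was at 273 CPM, against 21.8 (12.5-fold). In both sublibraries KDR lay far above the other nuclei, and adipocyte-like nuclei were lower in KDR by 57.3-fold. As the nuclei were chosen against these same others, nothing is read from these counts beyond their size.

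The 15 named genes outside the rule with the highest ratios to other nuclei were led by BTNL9 (21.0-fold, 1634 against 77.8 CPM). They included CCDC85A (1505 against 75.9 CPM), ABLIM3, an actin-binding protein (1476 against 79.97 CPM), and BCL6B, a repressor known in endothelium (119 against 6.56 CPM). PODXL, a sialomucin of the vessel surface, was at 151 against 8.52 CPM and RASIP1, needed for vessel lumens, at 263 against 16.7 CPM. RBP7, a retinol-binding protein of fat endothelium, was at 246 against 15.2 CPM, and WIPF3, an actin regulator, at 705 against 42.6 CPM.

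**Figure D1:**
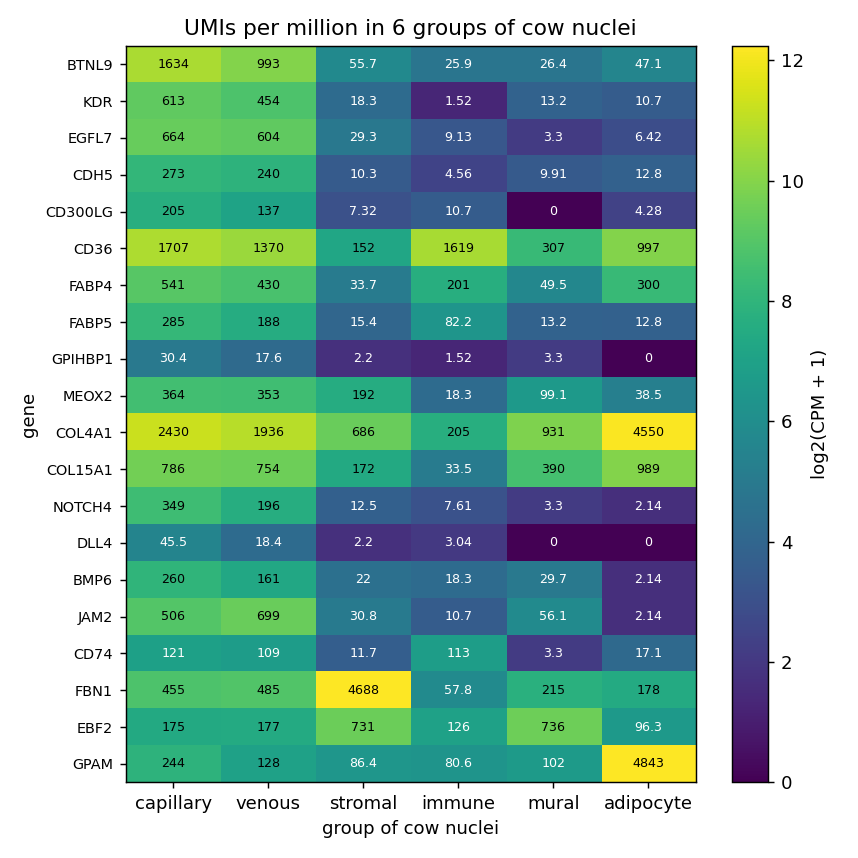
Levels of 20 genes (rows) in 6 groups of cow nuclei (columns), shaded by log2(CPM + 1) and with the CPM printed in each cell. BTNL9, KDR and NOTCH4 are high in both endothelial groups, while CD36 is also high in immune-like and adipocyte-like nuclei and GPAM is highest in adipocyte-like nuclei.

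Genes that carry fatty acids across capillaries were of both kinds, endothelial and shared with adipocytes. Of 17 measured fatty acid genes, 8 were at least 2-fold higher than in other nuclei and 1, LPL, was lower, beside 7.18% and 18.2% of all genes. The list shares CD36, FABP4, FABP5, GPIHBP1, MEOX2 and TCF15 with the capillary list, so the counts of both lists overlap. CD36, the fatty acid uptake receptor, was at 1674 and 1737 CPM in the sublibraries, at 720 CPM in other nuclei, at 997 CPM in adipocyte-like nuclei and at 1619 CPM in immune-like nuclei. FABP4, a fatty acid binding protein of adipocytes and capillaries, was at 580 and 507 CPM, against 141 CPM in other and 299.6 CPM in adipocyte-like nuclei. FABP5, a relative of FABP4, was at 339 and 238 CPM, against 35.7 CPM in other nuclei. CD36 and FABP4 were thus shared with other classes, and FABP5 was lower in adipocyte-like nuclei by 22.2-fold.

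GPIHBP1, the anchor of lipoprotein lipase, was at 36.7 and 24.8 CPM in the 2 sublibraries and at 2.95 CPM in other nuclei, from 46 UMIs in all, and at 0 UMIs in adipocyte-like nuclei. LPL itself, the enzyme, was at 72.6 CPM in capillary nuclei, at 205 in other nuclei and at 916 in adipocyte-like nuclei. Of the 110 LPL UMIs in capillary nuclei, 61.8% lay in 2 nuclei. MEOX2 and TCF15, partner transcription factors of the heart and fat endothelial fatty acid programme, were at 364 and 29.7 CPM, against 123 and 2.62 CPM in other nuclei. CAVIN1, a coat protein of caveolae, was at 424 CPM, against 99.8 in other nuclei. CAV1 and PPARG were not analysed here.

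VEGF and angiopoietin genes were mixed. Of 13 genes, KDR, TIE1 and TEK were at least 2-fold higher and VEGFA, ANGPT1 and PTPRJ at least 2-fold lower than in other nuclei, and the median log2 ratio was 0.19. Of all genes, 7.18% were higher and 18.2% lower, so the 3 of 13 lower are near the background. TEK, the angiopoietin receptor, was at 269 CPM, against 42.4, and TIE1, its partner, at 119 CPM, against 14.6. VEGFA, the ligand of KDR, was at 23.1 CPM, against 94.7 in other and 372 in adipocyte-like nuclei. NRP1, a coreceptor also used by other cells, was at 844 CPM, against 663.

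Of 13 Notch genes, 7 were higher, where 7.18% of all genes were, and 2, RBPJ and NOTCH2, lower, where 18.2% were. The summed list lay the other way, at 2372 CPM against 3224 CPM in other nuclei (log2 ratio -0.44, -0.49 to -0.39). NOTCH4, the endothelial Notch receptor, was at 346 and 352 CPM in the sublibraries and at 21.0 CPM in other nuclei (16.6-fold). NOTCH1 was at 363 CPM, against 85.7. DLL4, an endothelial Notch ligand, was at 45.5 CPM, against 2.62, but its log2 ratio was -0.16 when endothelial nuclei had to hold no stromal, immune or mural UMI, a choice that left 66 capillary nuclei and put the dropped ones among the other nuclei. RBPJ, the DNA-binding partner of Notch, was at 150 CPM, against 959 in other and 3151 in immune-like nuclei.

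Of 14 BMP and TGF-beta genes, 7 were higher and 4 lower, against the same 7.18% and 18.2%. BMP6, a ligand made by endothelium, was at 260 CPM, against 27.4. ENG, a coreceptor of endothelial BMP signalling, was at 242 CPM, against 47.9. TGFBR2, a TGF-beta receptor, was at 717 CPM, against 336.

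Of 15 genes of cell junctions, 11 were at least 2-fold higher and 1, PARD3, lower, beside 7.18% and 18.2% of all genes. JAM2, a junction adhesion molecule, was at 506 CPM, against 39.0, and TJP1, a tight-junction scaffold, at 667 CPM, against 136. Of 17 basement membrane genes, 8 passed 2-fold upward and 0 downward. COL4A1, a chain of type IV collagen, was at 2430 CPM, against 1171 in other nuclei and 4550 in adipocyte-like nuclei. HSPG2, perlecan, was at 1160 CPM, against 346, and LAMA5, a laminin chain of endothelial basement membranes, at 224 CPM, against 47.5.

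Of 22 transcription factors, 13 were higher and 1, FOXO1, lower, beside 7.18% and 18.2% of all genes. ETS1 was at 985 and 1017 CPM in the sublibraries, against 165 in other nuclei. ERG, the ETS factor most tied to endothelium, was at 517 CPM, against 61.8, and EPAS1, a hypoxia factor of vessels, at 1127 CPM, against 218. EBF1, an early B-cell and fat-cell factor, was at 2284 CPM in capillary and 2349 CPM in other nuclei, a log2 ratio of -0.04 (-0.09 to 0.01).

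Antigen presentation genes stood close to the immune-like level. Of 5 measured genes, 4 were at least 2-fold higher than in other nuclei, beside 7.18% of all genes. CD74, the class II invariant chain, was at 121 CPM in capillary, 113 in immune-like and 46.9 in other nuclei. NLRC5, the class I activator, was at 131, 122 and 40.3 CPM. CIITA, the class II activator, was at 53.5 CPM in capillary and 116 in immune-like nuclei, so it did not share that likeness.

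The counts of the next lists stand beside the 7.18% of all genes that were higher and the 18.2% that were lower. Of 12 nitric oxide and vasoactive genes, 7 were higher and 3 lower, while the summed list was lower, at 1096 against 1253 CPM (log2 ratio -0.19, -0.27 to -0.12). NOS3, the endothelial nitric oxide synthase, was at 94.4 CPM, against 9.67. Of 10 transporters, ABCG2, an efflux pump (237 against 43.1 CPM), and SLCO2A1, a prostaglandin transporter (119 against 16.4 CPM), were higher. SLC2A1 and SLC9A9 were lower, a share near the 18.2% of all genes. The summed transporter list was lower, at 828 against 1278 CPM (log2 ratio -0.63, -0.71 to -0.54). None of 6 proliferation genes was higher and 5 were lower, with a sum of 49 against 150 CPM. Of 9 immediate early genes, 0 were higher and 5 lower. Of 9 leukocyte adhesion genes, 2 were higher and 4 lower, while the summed list was higher, at 1040 against 695 CPM, and SELE, the cytokine-induced selectin, had 3 UMIs. Of 5 tip cell genes, 2 were higher and 1 lower.

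Markers of adipocytes, stromal cells, macrophages and mural cells were lower than in other nuclei, and were not absent. The counts of genes in this paragraph stand beside the 18.2% of all genes that were lower and the 7.18% that were higher. The adipocyte list summed to 527 CPM in capillary and 1362 CPM in other nuclei, with 7 of 8 genes at least 2-fold lower. Its most abundant gene was GPAM. The stromal list was at 882 against 4583 CPM (6 of 6 lower), the macrophage list at 325 against 2056 CPM (7 of 7 lower) and the mural list at 507 against 1302 CPM (7 of 9 lower). The stromal, macrophage and mural lists leave out the genes of the rule. The lymphocyte list was at 145 against 203 CPM, with 3 of 5 genes lower. The lymphatic list was at 182 against 210 CPM, but at 255 and 118 CPM in sublibraries 1 and 2, so that its direction differed between them, with NTS and CCL21 at 0 UMIs and PROX1, the lymphatic master factor, at 22 UMIs. The Schwann list was higher in capillary nuclei, at 62.0 against 27.9 CPM, with 1 of 3 genes past 2-fold, S100B (43.6 against 4.26 CPM). Muscle, red cell, and mesothelial and epithelial lists summed to 34, 7 and 6 CPM. Doublets were not removed, and their part in these levels was not tested.

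Against venous-gene nuclei, which share the endothelial choice, few genes differed by 2-fold. Of 7213 genes with at least 50 UMIs in the 2 groups together, 0.652% were at least 2-fold higher in capillary nuclei and 1.95% lower. The median log2 ratio was -0.07. None of 22 pan-endothelial genes passed 2-fold either way, and their sums were 9860 and 9912 CPM, a log2 ratio of -0.01 (-0.04 to 0.03). Venous-gene nuclei were deeper, as given above.

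Capillary genes were modestly higher in capillary nuclei. Their sum was 7481 and 6740 CPM in sublibraries 1 and 2, against 5265 and 5195 CPM in venous-gene nuclei, a log2 ratio of 0.44 (0.39 to 0.48) over both. Of 17 genes, 15 lay above a ratio of 1. RGCC was at least 2-fold higher, beside 0.652% of all genes, and 2, PLVAP and MEOX1, were at least 2-fold lower, beside 1.95%. RGCC, a cell-cycle regulator and capillary marker, was at 213 and 169 CPM, against 91.9 CPM, a log2 ratio of 1.04 (0.73 to 1.37), and it was at 285 CPM in adipocyte-like nuclei. BTNL9 was at 1724 and 1555 CPM, against 967 and 1018 CPM, a log2 ratio of 0.72 (0.62 to 0.82). KDR had a log2 ratio of 0.43 and FABP5 of 0.60. Both sublibraries gave capillary nuclei the higher BTNL9 level.

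PLVAP and MEOX1 lay the other way. PLVAP, the diaphragm protein of fenestrated and venular endothelium, was at 39.5 and 33.5 CPM, against 79.6 and 106 CPM. Its log2 ratio was -1.35 (-1.84 to -0.88), and it was seen in 26 capillary nuclei. Of these, 12 lay in cluster 5, described below, where PLVAP was at 297 CPM, against 13.6 CPM in the remaining capillary nuclei. MEOX1 was at 3.96 CPM, from 6 UMIs, against 39.9 CPM.

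Arterial genes were higher in the sum, but the interval included 0 when nuclei were thinned to 1000 UMIs. Of 16 measured genes, CXCL12, GJA5, JAG2, DLL4 and NEBL were at least 2-fold higher and VEGFC at least 2-fold lower, beside 0.652% and 1.95% of all genes. The sum was 2357 and 2230 CPM in the sublibraries, against 1566 and 1554 CPM, a log2 ratio of 0.55 (0.47 to 0.63) over both. Without the arterial-like cluster of 62 nuclei described below, 275 nuclei were at 1626 CPM, a log2 ratio of 0.06 (-0.03 to 0.15). The cluster was set apart by these genes and venous-gene nuclei were left whole, so its removal lowers the ratio by construction. With every nucleus thinned to 1000 UMIs the ratio was 0.13 (-0.05 to 0.32). CXCL12, a chemokine of arterial endothelium, was at 552 and 495 CPM, against 248 CPM (log2 ratio 1.07). GJA5, the arterial connexin, was at 53.6 and 78.1 CPM, against 26.4 CPM (log2 ratio 1.34), and at 172 CPM in mural-like nuclei. Without that cluster the log2 ratios were 0.27 for CXCL12, 0.10 for GJA5, 0.32 for NEBL, 0.76 for JAG2 and 1.12 for DLL4. JAG2, a Notch ligand, was at 83.2 against 40.7 CPM, and NEBL, an actin-binding protein, at 248 against 117 CPM.

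DLL4 was at 45.5 against 18.4 CPM (log2 ratio 1.31), but at -0.08 when nuclei were thinned to 1000 UMIs. JAG2 was at -0.48 and VEGFC at 2.52 when both groups were limited to nuclei without a stromal, immune or mural UMI. Neither of these values had an interval, and no direction is read from them. VEGFC, a lymphatic and vascular growth factor, was at 77.6 and 66.9 CPM in all capillary nuclei, against 199.7 CPM (log2 ratio -1.47). UNC5B and EFNB2, arterial guidance genes, had log2 ratios of 0.94 and 0.65, and NOTCH4 of 0.83, below 2-fold.

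The venous list, which leaves out the 4 barred genes, was lower in capillary nuclei. It summed to 1220 and 1242 CPM in the sublibraries, against 1870 and 1824 CPM, a log2 ratio of -0.58 (-0.67 to -0.50) over both, and 2 of 10 genes, IL1R1 and CLU, were at least 2-fold lower, beside 1.95% of all genes. When both groups had to hold no stromal, immune or mural UMI, the ratio was -0.10 (-0.44 to 0.24). VWF, the platelet-binding factor of larger vessels, was at 699 and 661 CPM, against 1085 CPM (log2 ratio -0.68). IL1R1, the interleukin-1 receptor, was at 15.8 against 67.9 CPM (log2 ratio -2.10). NR2F2, the venous fate factor, was at 29.7 against 57.5 CPM (log2 ratio -0.95), with 30 of its 45 UMIs in the 30 nuclei of a cluster with a raised mural list. Without that cluster it was at 11.6 CPM (log2 ratio -2.31). Venous-gene nuclei were left whole there, so dropping the nuclei that held most NR2F2 UMIs lowers the ratio by construction. Depth moved with this contrast, at a median of 3361 against 5083 UMIs per nucleus. With every nucleus thinned to 1000 UMIs the ratio of the venous list was -0.63 (-0.83 to -0.43), and within nuclei of 2000 to 6000 UMIs it was -0.54 (-0.68 to -0.39).

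**Figure D2:**
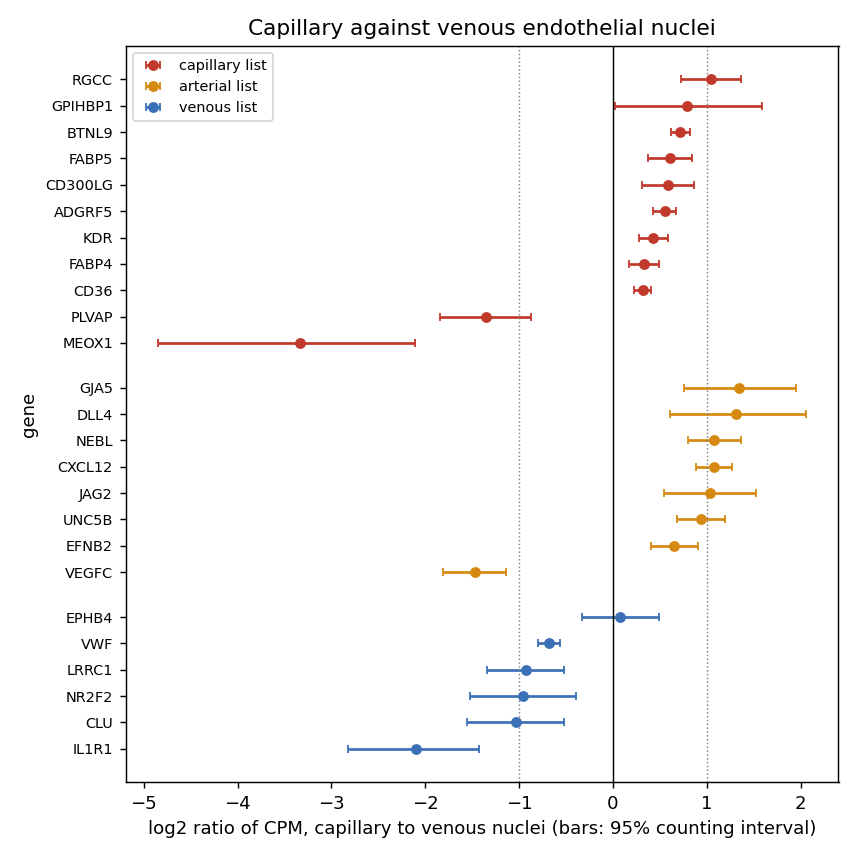
Log2 ratio of CPM between capillary and venous-gene nuclei for genes of the capillary, arterial and venous lists (points), with exact 95% counting intervals (lines) and 0 and 2-fold marked. Most capillary and arterial genes lie to the right of 0, with PLVAP, MEOX1 and VEGFC to the left, while most venous genes lie to the left; the genes shown were chosen after their values were seen.

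The 10 genes with the smallest ratios to venous-gene nuclei included SLC4A11, a membrane transporter (4.62 against 39.1 CPM), ACER2, an alkaline ceramidase (7.92 against 47.9 CPM), RBFOX3, a splicing factor (21.1 against 123 CPM), and PLEKHA7, a junction protein (40.9 against 193 CPM). TSPAN7, a tetraspanin, was at 27.7 against 127 CPM and CADM3, an adhesion molecule, at 9.90 against 48.7 CPM. ENSBTAG00000062735 had the lowest ratio, at 3.30 against 52.7 CPM. These genes ranged in log2 ratio from -4.00 for this unnamed gene to -2.20 for TSPAN7.

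At the other end, several of the 10 genes with the largest ratios rested on few nuclei. ENSBTAG00000058677 was at 29.6 and 197 CPM in sublibraries 1 and 2, with 53 of its UMIs in 1 nucleus. SCD, a desaturase of fat synthesis, was at 128 and 309 CPM, against 87.1 CPM, with 31.8% of its UMIs in 2 nuclei, and its log2 ratio was -0.48 with no upper limit of UMIs. HAUS3, a spindle protein (28.4 against 7.99 CPM), PEX19, a peroxisome factor (27.7 against 8.79 CPM), and SSUH2 (48.2 against 19.2 CPM) were also among the 10. BLOC1S5 and RILPL2, genes of organelle and cilium biology, were at 35.6 against 12.0 and 36.3 against 14.4 CPM, and both had a log2 ratio of -0.89 when both groups were limited to nuclei without a stromal, immune or mural UMI. ENSBTAG00000069868, at 28.4 against 10.4 CPM, was at -0.48 there. The ratios under that choice had no interval, and no direction is read from them.

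Adipocyte genes differed between the sublibraries of the capillary nuclei. The adipocyte list was at 329 and 700.4 CPM in capillary nuclei of sublibraries 1 and 2, against 361 and 306 CPM in venous-gene nuclei. GPAM, an enzyme of triglyceride synthesis, was at 127 and 347 CPM, and 50.8% of its 370 UMIs lay in 2 nuclei. DGAT2, which makes triglycerides, was at 89.8 against 42.3 CPM, with 46.3% of its UMIs in 2 nuclei. ACSL1, which activates fatty acids and was the fatty acid gene past 2-fold here, was at 242 against 119 CPM, with 106 of its 367 UMIs in 1 nucleus. DGAT2 had log2 ratios of -0.38, -0.62 and -0.04 under the choices with no stromal, immune or mural UMI, with no upper limit and within 2000 to 6000 UMIs, and ACSL1 of -0.03 under the last. The part of adipocyte transcripts in these values was not tested. Macrophage genes were lower in capillary nuclei, at 325 against 613 CPM, the stromal list was at 882 against 1018 CPM and the mural list at 507 against 562 CPM.

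The fatty acid list as a whole was at 5053 and 4670 CPM in the sublibraries, against 4201 and 4074 CPM in venous-gene nuclei, a log2 ratio of 0.23 (0.18 to 0.28). CD36 was at 1707 against 1370 CPM and FABP4 at 541 against 430 CPM. The 2 highest nuclei held 4.52% of the CD36 UMIs and 5.73% of the FABP4 UMIs, so these genes were spread over many nuclei.

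The capillary nuclei were divided into 7 clusters by their own expression, numbered 0 to 6, and their genes are given as a description. Cluster 2, of 62 nuclei (18.4%), had arterial genes among its leading genes and is called arterial-like. Its arterial list was at 4833 CPM, against 1161 to 2494 CPM in the other clusters. CXCL12 was at 1374 CPM, NEBL at 634 CPM and GJA5 at 214 CPM in this cluster. It held 28 nuclei of sublibrary 1 and 34 of sublibrary 2, with a median of 4567.5 UMIs.

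The remaining clusters are given by number. Cluster 3, of 72 nuclei (21.4%), had the highest pan-endothelial, capillary-list and venous-list sums, at 12532, 10317 and 1757 CPM. The capillary list was at 4359 to 7916 CPM in the other clusters. Cluster 3 also had the lowest arterial sum, at 1161 CPM. Cluster 5, of 28 nuclei (8.3%), had PLVAP at 297 CPM and KDR at 1517 CPM. Cluster 6, of 31 nuclei (9.2%), had pan-endothelial genes at 10856 CPM. The venous list was lowest in clusters 2 and 6, at 921 and 943 CPM.

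Mural and adipocyte genes were concentrated in 3 clusters. Cluster 0, of 30 nuclei (8.9%), had the mural list at 2286 CPM, against 95.6 to 291 CPM in the other clusters, and pan-endothelial genes at 6298 CPM, and it was the deepest, with a median of 6919 UMIs. Its leading genes by fold over the other capillary nuclei included RERGL, at 97.6 CPM against 0 UMIs in the others, and TRPC6, at 1221 against 38.8 CPM, both known from vascular smooth muscle. PDGFRB, a receptor of mural cells that the rule did not use, was at 457 CPM, against at most 54.9 CPM in the other clusters. The same 30 nuclei had the capillary list at 5171 CPM, against 5230 CPM in venous-gene nuclei and 885 CPM in mural-like nuclei. They thus held genes of both kinds, and only in part fit the capillary label. Cluster 1, of 48 nuclei (14.2%), had the adipocyte list at 1950 CPM, and cluster 4, of 66 nuclei (19.6%), at 663 CPM. The remaining clusters were at 157 to 268 CPM. The adipocyte genes LEP, GPAM and PLIN1 were among the leading genes of cluster 1, at 95.2, 1029 and 154 CPM. They were seen in 6, 18 and 7 of its 48 nuclei, so a minority of nuclei held each. PLIN4, a leading gene of cluster 4, was seen in 11 of 66 nuclei. The stromal list was at 1252, 1492 and 1335 CPM in clusters 0, 1 and 4 and at 998 CPM in cluster 6, the macrophage list ran from 165 to 549 CPM over the clusters, and the lymphatic list was at 431 CPM in cluster 1, against 66.9 to 296 CPM elsewhere. In cluster 4 the unnamed gene ENSBTAG00000066082 took 27.7% of the summed UMIs of the cluster. The capillary list of cluster 4, at 4359 CPM, was the lowest of the clusters and below that of venous-gene nuclei. Its pan-endothelial genes were at 6348 CPM. Without these 3 clusters, a choice made after the data were seen, 193 nuclei were left, and the log2 ratio to venous-gene nuclei was 0.67 for the capillary list and 0.76 for the arterial list. Venous-gene nuclei were left whole. Clusters 0 and 4 had the lowest capillary-list sums of the 7 clusters, so dropping them raises the capillary ratio by construction.

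**Figure D3:**
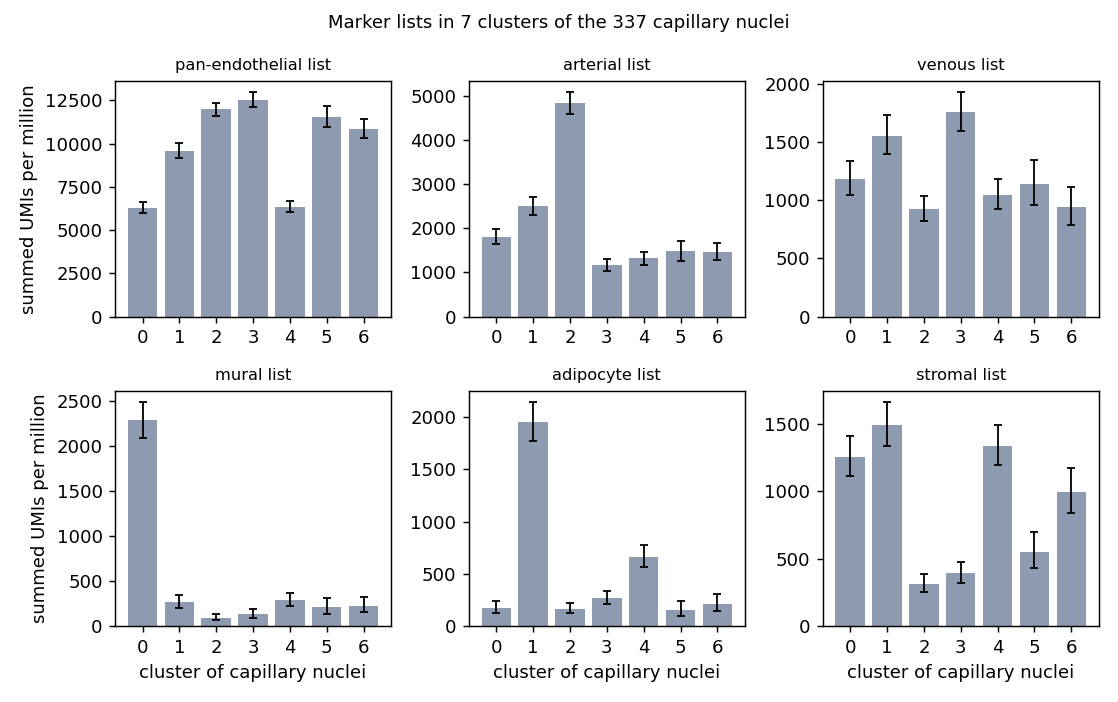
Summed CPM of 6 gene lists (panels) in the 7 clusters of capillary nuclei (bars from 0), with exact 95% Poisson intervals that cover counting error only. Cluster 2 has the highest arterial sum, 4833 CPM, cluster 0 the highest mural sum, 2286 CPM, and cluster 1 the highest adipocyte sum, 1950 CPM.

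The same rule, with rat gene names, chose 438 of 2704 nuclei of rat thoracic aorta perivascular fat (16.2%, 14.8 to 17.6) and 636 of 2687 of rat brown fat (23.7%, 22.1 to 25.3). Their medians were 1278 and 1499 UMIs, against 3361 in the cow. Species, depot, depth and gene annotation cannot be told apart between these libraries, and no difference was tested. PTPRB was at 652 CPM in the cow and at 736 and 784 CPM in the rat aortic and brown fat, and PECAM1 at 702, 583 and 616 CPM. BTNL9 was at 1634 CPM in the cow, against 375 and 552 CPM, and VWF at 679 CPM, against 153 and 80.3 CPM.

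Fatty acid genes did not follow 1 order. FABP4 was at 541 CPM in the cow, against 141 in its other nuclei, and at 643 and 683 CPM in the rat libraries, against 519 and 539 in theirs. FABP5 was at 285 CPM, against 17.7 CPM in rat brown fat, and had 14 UMIs in the 438 chosen nuclei of rat aortic fat. GPIHBP1 was at 30.4 CPM in the cow, against 70.7 and 75.2 CPM. CD74 was at 121 CPM in the cow, against 12.9 and 5.69 CPM, so cow nuclei had the higher FABP5 and CD74 values and the lower GPIHBP1 value. KALRN was at 3381 CPM, against 271 and 281 CPM. LPL was at 72.6 CPM in the cow and at 1453 and 1517 CPM in the endothelial nuclei of the rat libraries, whose other nuclei were at 2043 and 2307 CPM. PLIN1, a lipid-droplet gene of adipocytes, was at 1864 and 1585 CPM in the same rat endothelial nuclei and at 2594 and 2919 CPM in the other rat nuclei, so adipocyte transcripts were present there, and their part in the rat LPL and FABP4 levels was not tested.

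**Figure D4:**
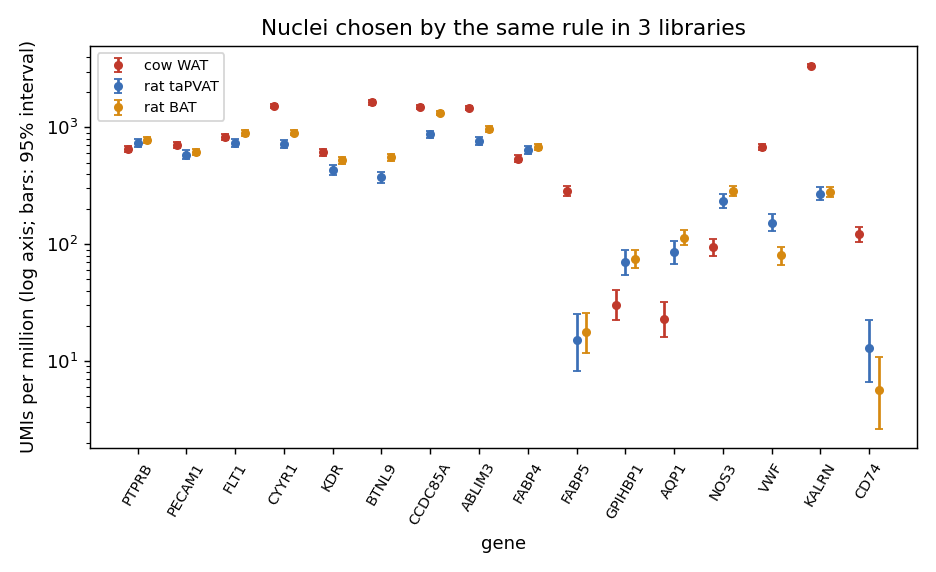
CPM of 16 genes, on a log axis, in the nuclei chosen by the same rule from cow subcutaneous fat, rat thoracic aorta perivascular fat and rat brown fat, 1 library each. BTNL9, FABP5, VWF and CD74 are highest in the cow and GPIHBP1 is lowest there; the genes shown were chosen after their values were seen.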

How the data were processed

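The count tables were deposited by the authors, who barcoded fixed nuclei (Parse Evercode WT), sequenced them and counted UMIs with split-pipe on the cow assembly ARS-UCD1.3; values are whole counts per gene and nucleus. The members and gene lists were chosen with earlier results of these data known. Nuclei above 15000 UMIs were left out, doublets were not called, and 16442 of 36075 cow genes had no name. Of 326 list genes, 14 were not found by name and were not analysed here. UMIs were summed per class and given as CPM (Python 3.11.15, numpy 2.4.6, scipy 1.17.1, pandas 2.3.3). Genes entered a comparison with at least 50 UMIs in both groups together. Intervals were exact Poisson for levels, exact binomial for shares and conditional binomial for ratios, at 95%. Clusters came from scanpy 1.11.5 (Leiden, resolution 0.8, 2000 variable genes, 20 components, 15 neighbours). Named genes were those of the rule and lists, the 10 most abundant, the 15 highest against other nuclei, and the 10 highest and lowest against venous-gene nuclei. The calculations of ratios and intervals were tested on simulated counts. Alternatives changed the thresholds, depth limits, sublibrary, thinning and weighting.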

Additional observations from a re-analysis of the deposited data

How the results depend on the processing

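Values are the number or percent of capillary nuclei, or log2 ratios of list sums, the pan-endothelial list against other nuclei and the capillary, arterial, venous and fatty acid lists against venous-gene nuclei. No list changed sign, but 3 ratios had intervals that included 0, the arterial list thinned and without cluster 2 and the venous list with no stromal, immune or mural UMI. Of 112 values under the alternatives, 65 stayed within the interval of the reported value and 47 did not. With a minimum of 3 endothelial UMIs the share was 18.1% and the pan-endothelial ratio 2.26, and with 10 there were 290 nuclei (14.1%). With no UMI of the stromal, immune and mural genes there were 66 nuclei (3.20%) of median 2073.5 UMIs, and the ratios were 1.38 (pan-endothelial), 0.85 (arterial), -0.10 (venous, -0.44 to 0.24) and 0.34 (fatty acid). With fewer than 2 venous-gene UMIs allowed there were 409 nuclei (19.8%) and a venous ratio of -0.72. With no upper limit the ratios were 1.98 (pan-endothelial), 0.49 (capillary) and 0.41 (arterial). With limits on UMIs, genes, mitochondrial share and outlying nuclei like the study's, but no doublet or rare-gene step, the capillary ratio was 0.39. Sublibrary 1 alone gave 155 nuclei and 0.51 (capillary), and sublibrary 2 gave 182 and 0.38. Thinning gave 2.35 (pan-endothelial) and 0.13 (arterial, -0.05 to 0.32), equal weight per nucleus 2.38 and 0.29, and 2000 to 6000 UMIs gave 2.42, 0.27 (capillary), 0.19 (arterial) and 0.11 (fatty acid). Among alternatives chosen after seeing the data, dropping clusters 0, 1 and 4 left 193 nuclei (9.35%) with 2.57, 0.67, 0.76 and 0.32 (pan-endothelial, capillary, arterial, fatty acid), and venous-gene nuclei with at least 3 such UMIs gave 0.57, 0.71 and -0.82 (capillary, arterial, venous). Dropping cluster 2 alone left 275 nuclei (13.3%) with 2.22 (pan-endothelial), 0.39 (capillary), 0.059 (arterial, -0.03 to 0.15) and -0.49 (venous), and dropping cluster 0 alone gave 2.39 (pan-endothelial) and 0.50 (capillary). Endothelial nuclei that failed the rule without stromal, immune and mural UMIs counted as other nuclei, which by construction lowers its pan-endothelial ratio. In the choices that dropped clusters, venous-gene nuclei were left whole, which by itself can move the ratios to them. The cause of the further shifts was not tested.

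Among named genes, 1 value against other nuclei changed sign, DLL4 at -0.16 with no UMI of the stromal, immune and mural genes, and 12 against venous-gene nuclei did. With no such UMI these were JAG2 -0.48, VEGFC 2.52, DGAT2 -0.38, BLOC1S5 -0.89, RILPL2 -0.89 and ENSBTAG00000069868 -0.48. Thinning gave DLL4 -0.077, no upper limit gave SCD -0.48 and DGAT2 -0.62, 2000 to 6000 UMIs gave ACSL1 -0.030 and DGAT2 -0.036, and dropping the 3 clusters gave DGAT2 -0.55. None of these sign changes carried an interval, so no turned direction is read from them. With 1 library per condition, spread between animals was not measured, and low-count genes such as GPIHBP1 and DLL4 are limited by depth. No paired analysis was possible because each group was 1 library and replicate numbers only name samples.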
